A study of Homo sapiens with 8 samples.

Results

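The 10 genes described here belong to the epidermal growth factor (EGF) receptor system: the ligand genes HBEGF, EREG, AREG, TGFA, BTC and NRG1, the receptor genes EGFR, ERBB2 and ERBB3, and the receptor inhibitor gene ERRFI1. They were taken by symbol from a table of 57445 genes, in which each had 1 row, and all 10 passed the filter on low counts. The cells were MDA231-BrM2, a breast cancer line selected for growth in the brain. Their polysomes were pulled out of lysates with beads against GFP, a method called translating ribosome affinity purification (TRAP), so that the RNA of the carcinoma cells was read rather than that of their neighbours. The 8 libraries formed 4 groups of 2. A control hairpin was carried by cells grown alone (control cells alone) and by cells grown with astrocytes (control coculture). The other groups carried 1 of 2 hairpins targeting GJA1, the gene of the gap junction protein Cx43, and were grown with astrocytes (hairpin 1 and hairpin 2 cocultures). Cocultures lasted 24 h with equal numbers of both cells. All groups share the line, a hairpin and the ribosome tag. Cx43-depleted cells without astrocytes are not among these groups, and the species of the astrocytes is not given in the sources used here. Nothing says that replicates came from separate cultures, so p-values measure only the spread between these libraries, which may be technical.

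EGF family ligands are made as membrane-anchored precursors that metalloproteases of the ADAM family release. EGFR binds EGF, TGF-alpha, amphiregulin, epigen, betacellulin, epiregulin and HB-EGF, while neuregulin 1 binds ERBB3 and ERBB4, and ERBB2 has no known ligand and serves as the partner of the others. Bound receptors pair and signal through RAS and ERK kinases and through PI3K, and ERRFI1 (also called MIG6) is a feedback protein that binds the EGFR kinase domain and restrains it. EREG (epiregulin) and HBEGF are known from studies of breast cancer spread to the brain and lung.

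The proximal promoters of EREG, BTC and ERRFI1 are shown because these 3 genes were called higher in the control coculture than without astrocytes and lower over both hairpins, and that of AREG because it lies between EREG and BTC. The order of protein-coding genes in the RefSeq annotation there is CXCL3, CXCL2, MTHFD2L, EPGN, EREG, AREG, BTC and PARM1, so that 4 EGF family ligand genes are neighbours on chromosome 4. Each sequence runs from 250 bases before to 50 bases after the RefSeq start site, 5′ to 3′ on the gene's own strand, in the build GRCh38.p14. They lie at chr4:74364895-74365194 (EREG, plus strand), chr4:74794474-74794773 (BTC, minus strand), chr1:8026260-8026559 (ERRFI1, minus strand) and chr4:74444886-74445185 (AREG, plus strand). Capitals mark matches to the 6 motifs listed after them.
EREG: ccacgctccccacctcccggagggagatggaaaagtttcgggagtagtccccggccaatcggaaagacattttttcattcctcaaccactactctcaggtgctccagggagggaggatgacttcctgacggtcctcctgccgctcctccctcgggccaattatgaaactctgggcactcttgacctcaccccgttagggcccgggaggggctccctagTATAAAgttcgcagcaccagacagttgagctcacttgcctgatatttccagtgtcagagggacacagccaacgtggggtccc
BTC: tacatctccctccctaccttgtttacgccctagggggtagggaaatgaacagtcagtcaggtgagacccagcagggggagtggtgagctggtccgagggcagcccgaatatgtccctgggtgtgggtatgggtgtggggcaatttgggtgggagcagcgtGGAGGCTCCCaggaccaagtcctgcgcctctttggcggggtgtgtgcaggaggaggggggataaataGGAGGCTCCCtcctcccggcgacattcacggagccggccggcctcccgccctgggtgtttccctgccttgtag
ERRFI1: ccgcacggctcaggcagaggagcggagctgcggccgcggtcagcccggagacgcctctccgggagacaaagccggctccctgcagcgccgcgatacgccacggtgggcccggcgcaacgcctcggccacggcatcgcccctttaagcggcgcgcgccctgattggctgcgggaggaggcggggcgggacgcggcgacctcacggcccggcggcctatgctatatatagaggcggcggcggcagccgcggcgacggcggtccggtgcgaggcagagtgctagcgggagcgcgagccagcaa
AREG: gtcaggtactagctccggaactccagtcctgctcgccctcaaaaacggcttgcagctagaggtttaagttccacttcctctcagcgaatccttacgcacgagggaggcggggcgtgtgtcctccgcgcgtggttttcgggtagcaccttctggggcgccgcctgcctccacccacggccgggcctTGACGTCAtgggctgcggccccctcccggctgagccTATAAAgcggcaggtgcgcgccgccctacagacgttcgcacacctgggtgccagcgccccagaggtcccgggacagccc

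Both strands were searched for the AP-1 motif TGANTCA, the cyclic AMP response element TGACGTCA, the interferon-stimulated response element (GAAA, any 2 bases, GAAA), the STAT-binding GAS motif TTCNNNGAA, the kappaB consensus and the TATA motif TATAAA. Among 35116 RefSeq promoter windows of 300 bases the shares with a match were 7.71%, 1.85%, 3.57%, 7.66%, 11.3% and 11.5%, in that order. EREG held TATAAA from base -32, counted from the start site, and none of the other 5 motifs. AREG held TGACGTCA from base -65 and TATAAA from base -29. BTC held the kappaB consensus at 2 places on the strand opposite to the printed one, from bases -90 and -23, and both matches read GGAGGCTCCC on the printed strand. ERRFI1 held none of the 6, and 74.7% of its bases were G or C, against 57.7% in EREG and a median of 58.7% over all windows. A match or its absence describes these letters only. NRG1 was left out of the search and ERBB3 had no window available, so windows were read for 8 of the 10 genes. Of the other 4, HBEGF held none of the motifs, TGFA held the kappaB consensus in 1 of 2 windows, ERBB2 held the AP-1 motif, and EGFR held the AP-1 and TATA motifs in 1 of 2 windows. No window of the 8 genes held the interferon element or the GAS motif.

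Reads counted in genes ranged from 38219702 to 48997555 per library, and 3 counts corresponded to 0.0624 to 0.0805 CPM (reads of a gene scaled to a common library total), a floor that covers counting error only. Levels are CPM over scaled library totals, given as mean ± SD with n = 2. GJA1, the target of the hairpins, was at 65.3 ± 0.901 CPM in the control coculture, 27.8 ± 0.00502 CPM with hairpin 1 and 32.7 ± 1.46 CPM with hairpin 2. Of the markers of a mesenchymal breast carcinoma line, VIM stood at 1318 to 2175 CPM, whereas ESR1, PGR, KRT5 and CDH1, genes of other breast carcinoma types, reached at most 1.54 CPM. Astrocyte markers were counted too, since the pull-down could hold their RNA, and less RNA per cell and fewer cells of a type cannot be told apart in such pooled lysates. The summed level of 15 astrocyte markers was 79.6 to 84.2 CPM in control cells alone, 115 CPM in both control cocultures, 93.6 to 102 CPM with hairpin 1 and 90.7 to 91.5 CPM with hairpin 2. SOX9 (35.6 to 48.1 CPM) and CLU (11.2 to 18.9 CPM) made up most of this sum in every library, also in those without astrocytes. Of 11 tested, 6 were higher with astrocytes in the control cells, among them SOX2, GFAP and SLC1A3, beside 11.7% of all tested genes called in that comparison. None was called lower, while FGFR3 and ALDH1L1 had lower means without a call. FGFR3 went from 2.23 and 2.43 CPM to 1.88 and 1.80 CPM, and ALDH1L1 from 1.43 and 1.16 CPM to 1.23 and 1.02 CPM. Over both hairpins 4 of the 11 were lower than with the control hairpin, beside 9.22% of all genes. With 1 library left out these counts ran from 4 to 7 and from 2 to 4, and 4 of the 6 and 2 of the 4 calls (SOX2 and CLU) held in each such analysis. The defining markers AQP4, S100B and GJB6 stayed at or under 0.169 CPM in every library. GFAP peaked with hairpin 1, where the libraries held 16.5 and 16.9 CPM. The control coculture followed at 13.8 and 12.8 CPM, then the hairpin 2 coculture at 11.7 and 12.2 CPM. Control cells without astrocytes were lowest, at 8.80 and 8.53 CPM. Against the control coculture GFAP was called higher with hairpin 1 (log2 change 0.33, edgeR adjusted p = 0.0397). That call did not hold without each library in turn. With hairpin 2 the change of GFAP did not pass (-0.15, edgeR adjusted p = 0.347). Other marker sums were also highest in the control coculture, as EREG, BTC and ERRFI1 were. Of 4 neuron markers the sum was 21.4 to 21.6 CPM there and 13.8 to 15.3 CPM elsewhere, mostly through MAP2, while RBFOX3 had at most 1 read per library. Of 7 microglia and macrophage markers it was 5.32 to 5.55 CPM there and 2.88 to 4.11 CPM elsewhere, with AIF1, TYROBP and C1QA at 0 in all libraries. Of 3 endothelial markers it was 9.48 to 9.95 CPM there and 6.29 to 8.37 CPM elsewhere, nearly all of it KDR. The 8 markers of the carcinoma line itself summed to 5199 to 5532 CPM there and 4397 to 5027 CPM elsewhere. This was mostly through VIM, at 2175 and 2095 CPM there and 1318 to 1548 CPM elsewhere. Against control cells alone 2 of the 8 were called higher and none lower, while AXL, CAV1 and EGFR had lower means without a call. The part of these sums in the results below was not tested.

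The genes spanned a wide range when CPM were divided by exon length. In control cells alone ERRFI1 led with 231 ± 4.65 CPM per kilobase, followed by HBEGF at 33.2 ± 0.601, EGFR at 15.7 ± 1.13, TGFA at 5.88 ± 0.0814, ERBB2 at 5.58 ± 0.519, NRG1 at 3.42 ± 0.217 and EREG at 1.83 ± 0.0328. ERBB3, AREG and BTC stood lowest, at 0.271 ± 0.00577, 0.261 ± 0.00625 and 0.226 ± 0.014 CPM per kilobase, the value of AREG being uncertain for a reason given below. Within that order the libraries of TGFA and ERBB2 overlapped, and the other neighbours did not. ERRFI1 ranked at the 99.0th percentile of 15434 tested genes with a length, HBEGF at the 88.8th, EGFR at the 77.8th, EREG at the 37.7th and BTC at the 11.6th. In the control coculture EREG, at 4.45 ± 0.372 CPM per kilobase, stood above NRG1, at 3.09 ± 0.0374, and its percentile was 52.3. With hairpin 1 it stood below NRG1 again, and with hairpin 2 the 2 genes were at 2.37 ± 0.0456 and 2.28 ± 0.00663. The plot of length-scaled levels shows this order in each group.

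**Figure D1:**
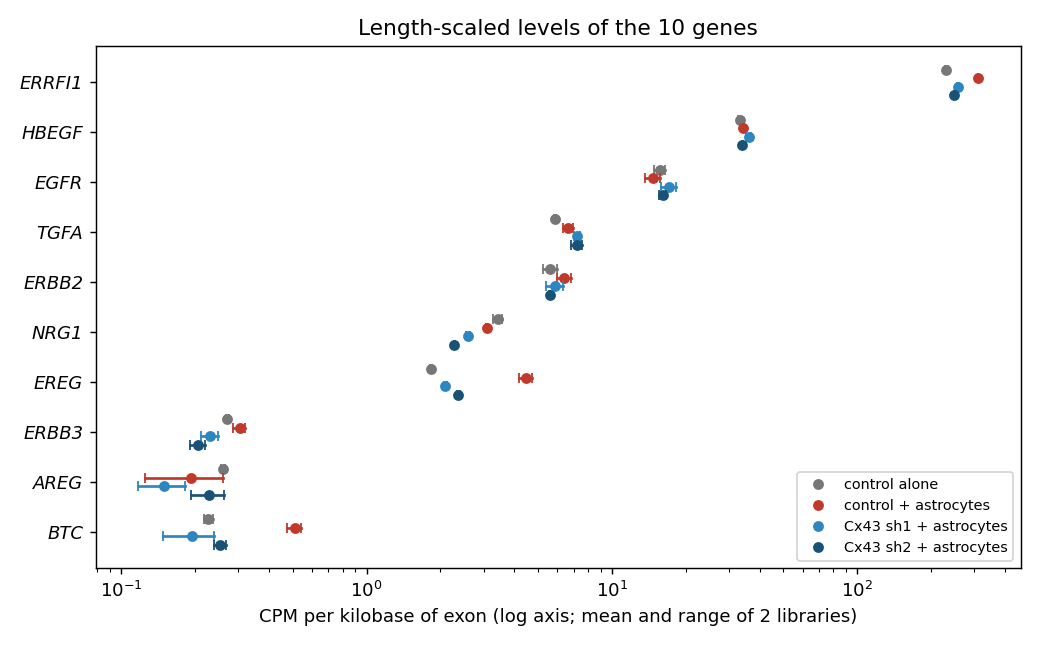
CPM per kilobase of exon (log axis) for each of the 10 genes, with 1 row of 4 colours per gene for the 4 groups; points are means and bars span the 2 libraries. ERRFI1 lies at 231 to 312 and BTC, AREG and ERBB3 lie at or below 0.543 in every library, and EREG passes NRG1 in the control coculture.

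The first question was which of these transcripts differ on carcinoma cell ribosomes when astrocytes are present. EREG, BTC and ERRFI1 rose, and none of the 10 genes fell. This is 3 of 10 genes, beside 11.7% of 15806 tested genes called in either direction, 8.74% called higher and 2.93% called lower. The libraries of the 2 groups did not overlap for 8 of the 10, beside 56.3% of all genes. The median change of the 10 genes was 0.17 on the log2 scale, beside -0.0026 over all tested genes.

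EREG encodes epiregulin, a ligand of EGFR and ERBB4. Control cells alone had 10.6 and 10.3 CPM, with 23.9 and 26.9 CPM in the control coculture, 12.2 and 11.8 CPM with hairpin 1, and 13.7 and 13.4 CPM with hairpin 2. Both control cocultures stood above all other libraries, and the other 3 groups lay close together. With astrocytes, EREG in control cells was 2.43-fold higher (log2 change 1.28, SE 0.084, edgeR quasi-likelihood adjusted p = 2.31e-05). The call held in all 14 alternative analyses, with changes from 1.17 to 1.36.

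BTC encodes betacellulin, which also binds EGFR and ERBB4. Its reads numbered 26 and 32 in control cells alone, 52 and 57 in the control coculture, 18 and 28 with hairpin 1, and 28 and 33 with hairpin 2. That is 0.610 and 0.666 CPM, 1.34 and 1.53 CPM, 0.416 and 0.676 CPM, and 0.675 and 0.751 CPM. As for EREG, the control cocultures were the highest of the 8 libraries. BTC was 2.24-fold higher in the control coculture than alone (log2 change 1.16, SE 0.235, edgeR adjusted p = 0.0149). This call rests on every library of its 2 groups: leaving out library 1 or 2 of the control cells alone, or library 1 or 2 of the control coculture, gave adjusted p = 0.0853, 0.0708, 0.0503 and 0.0755.

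ERRFI1, the feedback inhibitor, was by far the most abundant of the 10. Control cells without astrocytes had 953 and 981 CPM, with 1303 and 1308 CPM in the control coculture, 1090 and 1072 CPM with hairpin 1, and 1033 and 1054 CPM with hairpin 2. The control cocultures were again the 2 highest libraries. With astrocytes, ERRFI1 in control cells was 1.35-fold higher (log2 change 0.43, SE 0.061, edgeR adjusted p = 0.00253), and the call held in all 14 alternative analyses.

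The other ligand genes did not pass the test with astrocytes present. HBEGF, a ligand of EGFR and ERBB4, was at 102 and 99.0 CPM without astrocytes and at 103 and 104 CPM with them. The 95% interval of its change ran from 0.936-fold to 1.13-fold. TGFA, the transforming growth factor alpha gene, was at 28.9 and 29.5 CPM alone and 34.5 and 31.5 CPM in the control coculture (log2 change 0.17, edgeR adjusted p = 0.207). NRG1, the neuregulin 1 gene, was at 37.1 and 40.5 CPM alone and 35.4 and 34.8 CPM in the control coculture (-0.15, edgeR adjusted p = 0.224). For TGFA and NRG1 the libraries of these groups did not overlap, but the differences did not pass the test. AREG, the amphiregulin gene, had only 8 to 21 reads per library, and its change had an interval from -1.32 to 0.43. AREG is reported as uncertain, because the table also lists AREGB, a near-identical copy with 0 reads in all libraries, and reads that align to both are not unique.

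The receptor genes did not pass the test either. EGFR was at 207 and 187 CPM without astrocytes and 196 and 172 CPM in the control coculture, and these ranges overlap. The interval of its change was 0.800-fold to 1.09-fold. ERBB2 was at 61.4 and 53.8 CPM alone and 70.1 and 61.7 CPM in the control coculture, with an interval of 0.973-fold to 1.35-fold. In GENCODE 29, ERBB2 overlaps 2 protein-coding genes on the other strand, ERBB3 overlaps 1 on its own strand, and EGFR and ERRFI1 each overlap an antisense gene. The kit does not mark strand, so reads there cannot be assigned by strand to 1 of 2 overlapping genes. Reads counted as ambiguous, 2.63% to 3.2% of the totals, were left out of the gene counts. Which overlaps the annotation used for counting held is not known. ERBB3, whose kinase is weak and which signals through its partners, had 2.49 and 2.41 CPM alone and 2.60 and 2.90 CPM in the control coculture (0.17, edgeR adjusted p = 0.505).

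**Figure D2:**
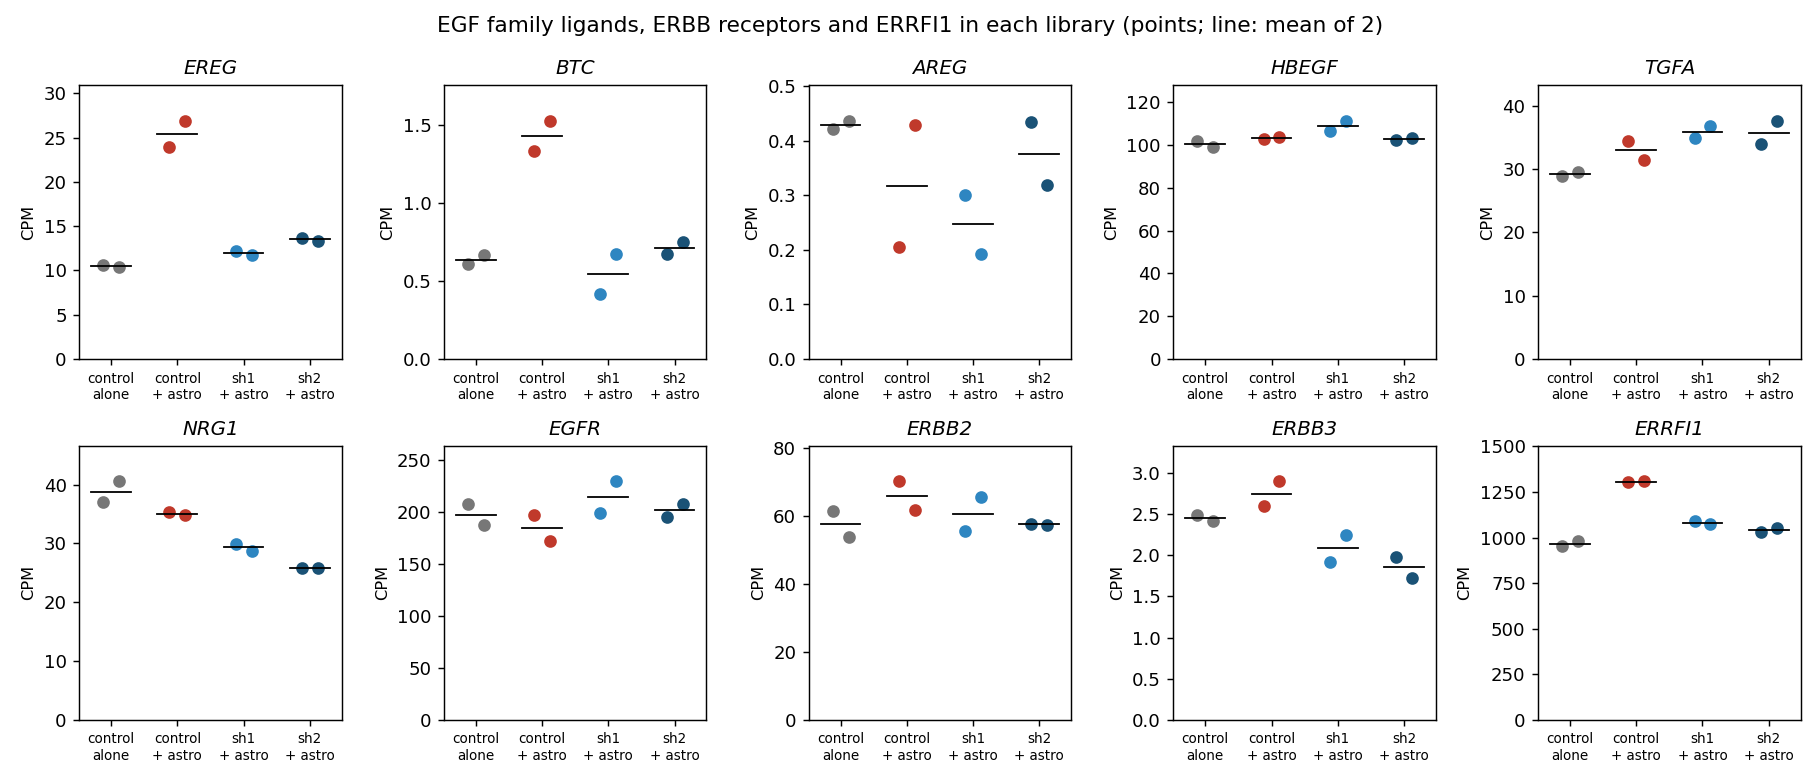
CPM of each of the 10 genes (linear axes from 0) in every library, by group; points are libraries and lines are means of 2. The control cocultures are the 2 highest libraries for EREG (23.9 and 26.9 CPM), BTC (1.34 and 1.53 CPM) and ERRFI1 (1303 and 1308 CPM), while HBEGF stays between 99.0 and 111 CPM.

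The second question was which of the 10 transcripts differ when carcinoma cells with less Cx43 are grown with astrocytes. Over both hairpins EREG, BTC, NRG1 and ERRFI1 fell and none rose. This is 4 of 10 genes, beside 9.22% of all tested genes called in either direction, 5.85% called lower and 3.37% called higher. For 5 of the 10 all 4 depleted libraries lay outside the control coculture, beside 34.6% of all genes. The median over the 10 genes was -0.23, beside -0.008 over all tested genes. These comparisons share the control coculture libraries with the one above, so a high value there lowers every value here, and the 2 sets are given side by side only.

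EREG fell to 50.1% of its control coculture level over both hairpins (log2 change -0.998, SE 0.069, edgeR adjusted p = 4.21e-05), and this call held in all 14 alternatives. Taken singly, EREG was at 47.1% with hairpin 1 (-1.09, adjusted p = 0.000101) and 53.3% with hairpin 2 (-0.91, adjusted p = 0.000357) by the edgeR test, and both calls held in all 14 alternatives. With hairpin 1, 3 of 10 genes were called, all lower, beside 4.73% of all genes called lower, 3.09% called higher and 7.82% in either direction, and 8 did not overlap, beside 49.5%. With hairpin 2 there were also 3, all lower, beside 3.2% called lower, 0.962% called higher and 4.16% in either direction, and 6 did not overlap, beside 53.4%.

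BTC fell to 43.6% over both hairpins (log2 change -1.20, SE 0.202, edgeR adjusted p = 0.00913), a call that ended when control coculture library 2 was left out (adjusted p = 0.0923). With hairpin 1 alone it fell to 38.1% (edgeR adjusted p = 0.0142), and that call ended without the same library (adjusted p = 0.0924) or when only these 2 groups were fitted (adjusted p = 0.084). With hairpin 2 alone it was at 49.9%, short of the threshold (edgeR adjusted p = 0.0509). It passed when only these 2 groups were fitted (adjusted p = 0.0373), when genes of low count were kept (0.00261), and without library 1 (0.0264) or 2 (0.0267) of hairpin 1.

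ERRFI1 fell to 81.4% over both hairpins (log2 change -0.30, SE 0.052, edgeR adjusted p = 0.011), with no overlap between the groups. The call ended without library 1 or 2 of the control coculture (adjusted p = 0.0787 and 0.111) or library 1 or 2 of hairpin 2 (0.0668 and 0.0645). Singly, it was at 82.8% with hairpin 1 (edgeR adjusted p = 0.0336) and 80.0% with hairpin 2 (edgeR adjusted p = 0.023). The single calls were kept by 5 and 7 of 14 alternatives, and both ended with the replicate number as a block (adjusted p = 0.091 and 0.0813). Of the libraries left out in turn, only leaving out library 1 of hairpin 1 kept the call for hairpin 1, and only leaving out either hairpin 1 library kept that for hairpin 2.

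NRG1, the ligand of ERBB3 and ERBB4, showed another order of groups. Its level was 29.9 and 28.8 CPM with hairpin 1 and 25.8 and 25.9 CPM with hairpin 2, below the 35.4 and 34.8 CPM of the control coculture and the 37.1 and 40.5 CPM of control cells alone. All 4 depleted libraries were lower than all 4 control libraries. The same held for the sum of 8 fibroblast and mesenchyme markers, mostly COL1A1, which was 659 to 1068 CPM in control cells alone, 752 to 809 CPM in the control coculture, 428 to 504 CPM with hairpin 1 and 479 to 493 CPM with hairpin 2, and its part in the result was not tested. Over both hairpins NRG1 fell to 78.6% of the control coculture (log2 change -0.35, SE 0.062, edgeR adjusted p = 0.0112). That call ended without library 1 or 2 of the control coculture (adjusted p = 0.0842 and 0.0964) or library 1 or 2 of hairpin 2 (0.0528 and 0.0589). With hairpin 2 it was called (-0.44, edgeR adjusted p = 0.0118), and the call ended without the same libraries (adjusted p = 0.0879, 0.0859, 0.137 and 0.14). With hairpin 1 its change of -0.26 did not pass (edgeR adjusted p = 0.0629).

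ERBB3, the receptor of neuregulin 1 among the 3 receptor genes, was at 1.92 and 2.25 CPM with hairpin 1 and 1.98 and 1.73 CPM with hairpin 2. As for NRG1, all these libraries were below the control coculture (2.60 and 2.90 CPM) and control cells alone (2.49 and 2.41 CPM). Its change of -0.48 over both hairpins fell just short (SE 0.129, edgeR adjusted p = 0.0516). It passed without library 2 of hairpin 1 (adjusted p = 0.0479) and under both other filters on low counts (0.0287 and 0.0434). ERBB2 was at 55.5 and 65.6 CPM with hairpin 1 and 57.6 and 57.4 CPM with hairpin 2, and its change did not pass (-0.16, edgeR adjusted p = 0.298).

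EGFR was at 199 and 229 CPM with hairpin 1 and 195 and 208 CPM with hairpin 2. Its interval over both hairpins ran from 0.985-fold to 1.29-fold of the control coculture (edgeR adjusted p = 0.244). With hairpin 1 alone its change of 0.22 did not pass (edgeR adjusted p = 0.208), but it did without library 1 of hairpin 1 (0.32, adjusted p = 0.049). HBEGF was at 107 and 111 CPM with hairpin 1 and 102 and 103 CPM with hairpin 2, and its interval over both hairpins was 0.944-fold to 1.11-fold. TGFA was at 34.9 and 36.8 CPM with hairpin 1 and 33.9 and 37.7 CPM with hairpin 2 (0.12, edgeR adjusted p = 0.331). AREG had an interval from -0.87 to 0.78 over both hairpins.

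The 2 hairpins were also compared with each other. None of the 10 genes differed by the edgeR test, beside 0.0316% of all tested genes called (0.0253% higher and 0.00633% lower with hairpin 2), and 1, NRG1, had an unadjusted p under 0.05 (0.0323, adjusted p = 0.705). DESeq2 called 0 of the 10 as well. Libraries did not overlap for 5 of the 10, beside 37.4% of all genes. The interval of the difference, hairpin 2 minus hairpin 1, was -0.015 to 0.371 for EREG, -0.228 to 1.01 for BTC, -0.347 to -0.02 for NRG1 and -0.19 to 0.088 for ERRFI1.

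**Figure D3:**
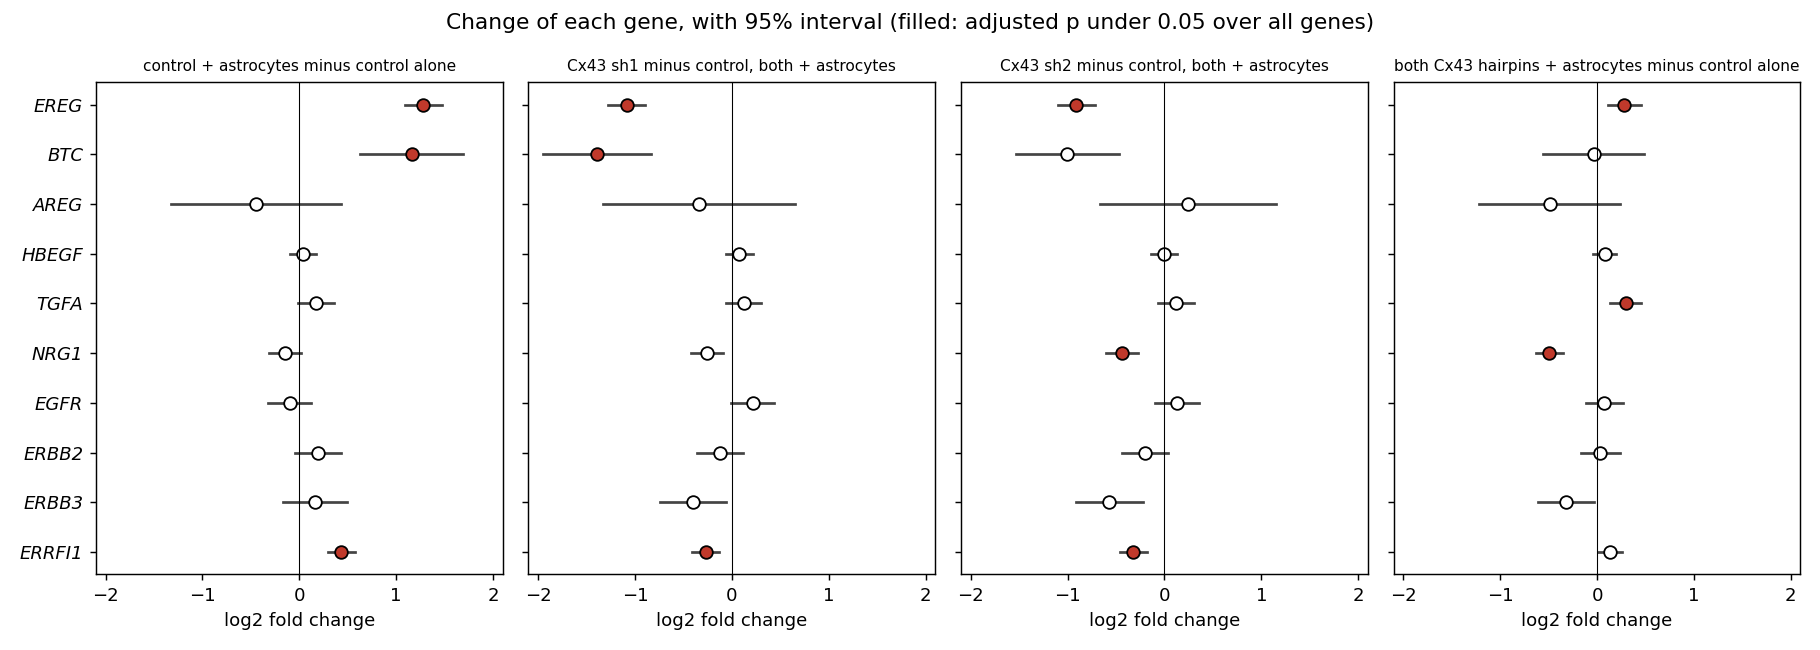
Log2 fold change of each gene with its 95% interval in 4 comparisons, 1 panel each; filled points have an edgeR adjusted p under 0.05 over all genes. EREG lies at 1.28 in the first panel and at -1.09 and -0.91 in the next 2, and NRG1 has its largest shift, -0.49, in the last.

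Depleted cocultures were finally set against control cells alone. These sides differ both in the hairpin and in the presence of astrocytes, which cannot be told apart here. Of the 10 genes 2 were higher and 1 lower, beside 17.1% of all genes called in either direction, 10.8% higher and 6.34% lower. Libraries did not overlap for 6, beside 44.7%. NRG1 fell to 71.0% (log2 change -0.49, SE 0.061, edgeR adjusted p = 0.00174), a call that held in all 14 alternatives. TGFA rose 1.23-fold (0.29, SE 0.071, edgeR adjusted p = 0.0249). Its call ended when library 1 or 2 of control cells grown alone was left out (adjusted p = 0.139 and 0.115), likewise for library 2 of hairpin 2 (0.0965) and with the replicate number as a block (0.058). EREG was 1.22-fold higher (0.28, SE 0.075, edgeR adjusted p = 0.0349). That call ended when either library of control cells grown alone was left out (adjusted p = 0.149 and 0.202), likewise for library 1 or 2 of hairpin 2 (0.0988 and 0.101), under DESeq2 (0.0662) and with the block (0.0737). ERRFI1 (0.14, edgeR adjusted p = 0.111), ERBB3 (-0.32, adjusted p = 0.116) and BTC (-0.04, interval -0.559 to 0.487) did not pass.

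The genes of the family outside the 10 were at low levels. NRG2 had 124 to 162 reads per library and did not pass the test in either comparison (edgeR adjusted p = 0.733 with astrocytes, 0.642 with depletion). EGF had 5 to 23 reads and NRG4 10 to 19. EPGN, NRG3 and ERBB4 were below the filter on low counts, with 0 to 5, 4 to 13 and 2 to 12 reads. EPGN and AREG, the neighbours of EREG on either side, thus had too few reads to place beside its change.

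Genes around the receptors were read from 5 lists, beside the shares and medians of all genes given above. The list of ligand shedding had 6 of 13 genes higher with astrocytes in control cells, with none lower and a median of 0.21. ADAM8, a metalloprotease, went from 32.0 to 47.2 CPM (0.56, edgeR adjusted p = 0.00379), the inactive rhomboid RHBDF2, which matures ADAM17, from 15.4 to 23.7 CPM (0.62, adjusted p = 0.00827), and the metalloprotease inhibitor TIMP3 from 89.0 to 117 CPM (0.40, adjusted p = 0.00803). ADAM17 itself, the main sheddase of several EGF family ligands and named here after its values were seen, was 0.33 higher (edgeR adjusted p = 0.0191), though 6 of 8 analyses with 1 library left out ended that call. Of the 6 calls, that of ADAM8 alone held without each library in turn, and with 1 library left out the count ranged from 1 to 7. Over both hairpins 2 of 13 were lower, TIMP3 (-0.40, edgeR adjusted p = 0.00515) and ADAM8 (-0.41, adjusted p = 0.0112), and neither call held without each library. Taken singly, TIMP3 was called with hairpin 2 (-0.64, edgeR adjusted p = 0.00133) and not with hairpin 1 (-0.16, adjusted p = 0.182), and the difference between hairpins was -0.47 (unadjusted p = 9.74e-05, edgeR adjusted p = 0.211). ADAM8 was called with hairpin 1 (-0.50, edgeR adjusted p = 0.0126) and not with hairpin 2 (-0.32, adjusted p = 0.0756), a difference of 0.17 (edgeR adjusted p = 0.705). ADAM17 was at 64.0 CPM there, beside 63.5 CPM in the control coculture.

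The list of ERK-response transcripts had 8 of 20 genes higher in the control coculture, none lower, with a median of 0.20. These included SPRY4, a Sprouty inhibitor of receptor signalling (0.82, edgeR adjusted p = 0.000402), the growth regulator MYC (0.47, adjusted p = 0.00117) and the early response gene IER3 (0.81, adjusted p = 0.00143), and these 3 calls held without each library in turn. With 1 library left out the count ranged from 4 to 8. Over both hairpins 8 fell and 1 rose, with a median of -0.14. DUSP5, an ERK phosphatase, fell by 0.86 (edgeR adjusted p = 2.9e-05), SPRY2 by 0.48 (adjusted p = 0.00121) and MYC by 0.37 (adjusted p = 0.0031). These 3 calls, too, held without each library, and the count of falls ranged from 3 to 9. SPRED2, a further inhibitor of the RAS pathway, was the 1 that rose (0.30, edgeR adjusted p = 0.0473), which 2 of 8 analyses with 1 library left out kept.

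The other 3 lists had fewer calls. Of 14 receptor adaptors 2 were higher in the control coculture, the kinase gene SRC (0.57, edgeR adjusted p = 0.00815) and the docking protein gene GAB1 (0.50, adjusted p = 0.0173), and none passed over both hairpins. With 1 library left out, 0 to 4 adaptors were higher in the control coculture and 0 to 3 over both hairpins. Of 17 genes of the RAS, MAPK and PI3K relay 1 was called in each comparison, MAPK3, which encodes ERK1. It was 0.29 higher in the control coculture (edgeR adjusted p = 0.0204) and -0.36 with both hairpins (adjusted p = 0.00531). Leaving out 1 library in turn gave 0 to 1 relay genes higher in the control coculture, and over both hairpins 0 to 3 higher and 0 to 1 lower. Of 19 genes of receptor restraint and traffic, the ubiquitin ligase gene CBLB (0.39, edgeR adjusted p = 0.0486) and LRIG1, a membrane inhibitor of ERBB receptors (0.33, adjusted p = 0.0473), were higher in the control coculture. Over both hairpins SOCS4 rose (0.43, edgeR adjusted p = 0.00219), which held without each library, and TNK2 fell (-0.35, adjusted p = 0.0384). The 8 analyses with 1 library left out gave 0 to 5 genes of this list higher in the control coculture, and over both hairpins 1 to 2 higher and 0 to 1 lower. Of the calls in these 3 lists only that of SOCS4 held without each library in turn.

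**Figure D4:**
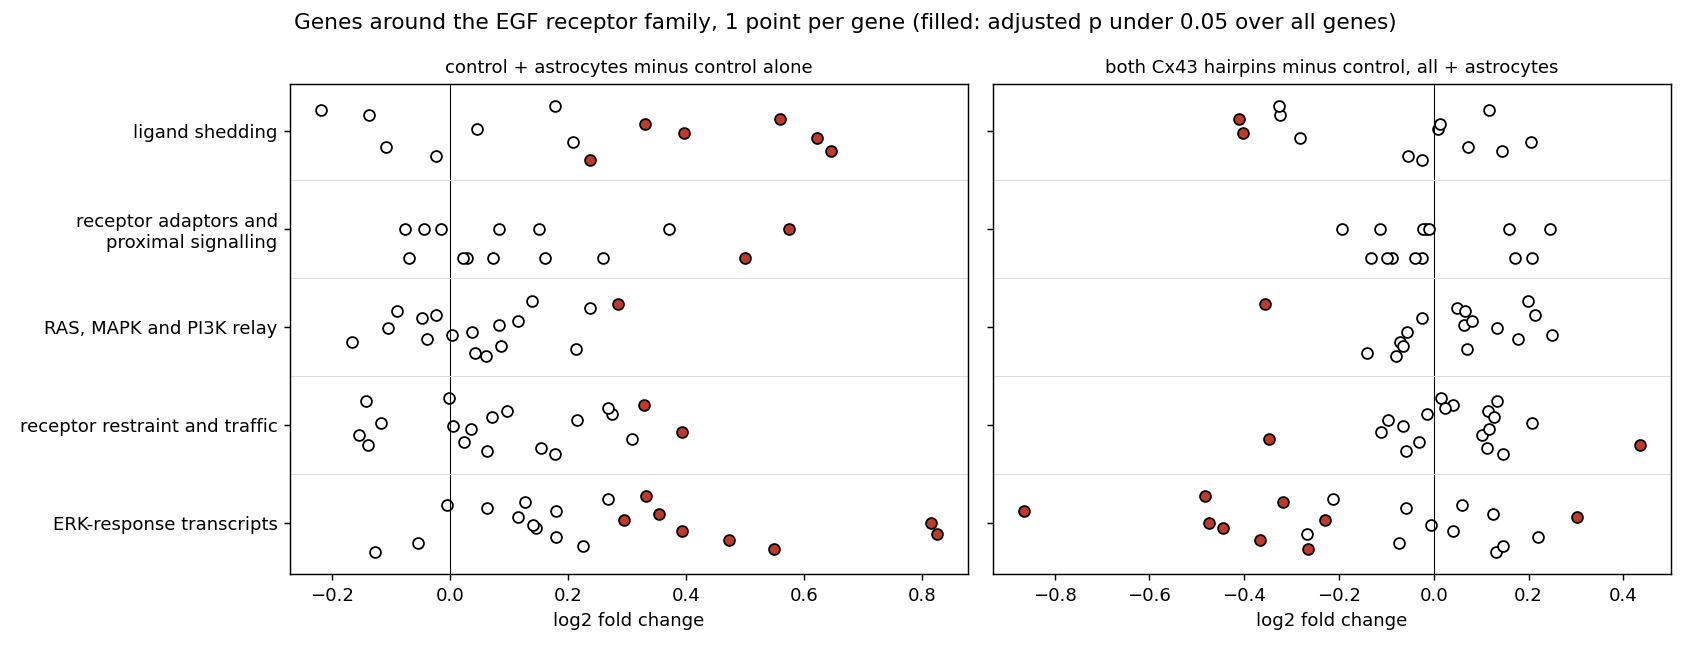
Log2 fold changes of the tested genes in 5 lists around the EGF receptor family, 1 point per gene (vertical spread within a list has no meaning); filled points have an edgeR adjusted p under 0.05. Filled points lie right of 0 on the left panel, 6 in ligand shedding and 8 in ERK-response transcripts, and mostly left of 0 on the right panel.

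The genes whose levels followed EREG most closely over the 8 libraries were the interferon-induced genes IFITM1, IFITM3 and IFI44. Their Pearson r was 0.997, 0.997 and 0.996 among 11618 candidates, of which 2.91% had r over 0.9. All r were taken on log2 of CPM plus 0.5. IFITM1 went from 11.1 CPM in control cells alone to 128 CPM in the control coculture and to 15.1 and 19.4 CPM with the hairpins, a wider range than that of EREG. IFITM3 was at 235, 621, 264 and 310 CPM in that order of groups. For ERRFI1 the nearest were the kinase gene PIM1 (0.991), APOL1 (0.988) and N4BP1 (0.987). For HBEGF they were the protease-activated receptor gene F2RL1 (0.983), NPTXR (0.983) and RDH10 (0.979). For AREG, which rests on few reads and lies below the added 0.5 CPM in every library, they were RPL36 (0.979), PAM16 (0.971) and USE1 (0.97). These coefficients describe libraries that share groups, and no test was made of them.

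**Figure D5:**
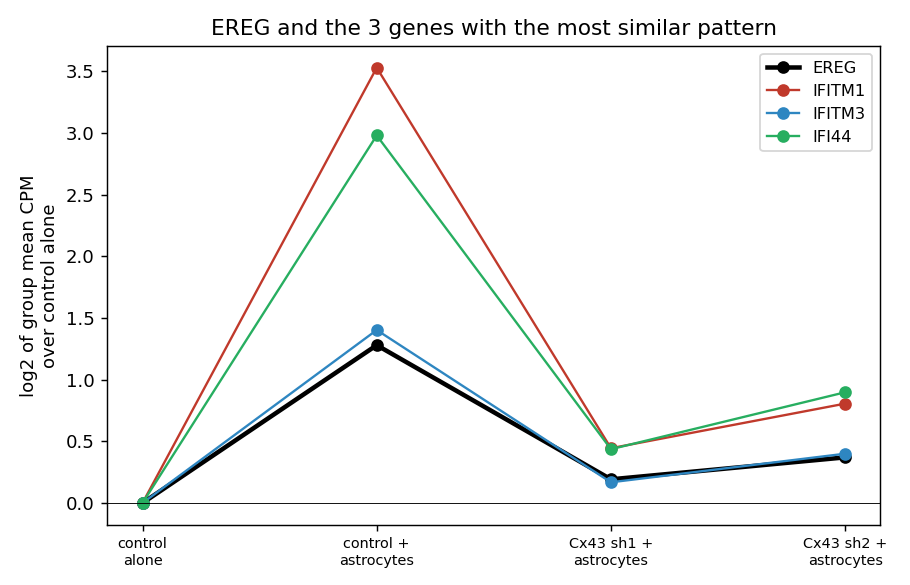
Log2 of the group mean CPM over that of control cells alone for EREG and its 3 nearest genes, across the 4 groups; each point is a mean of 2 libraries and lines join the groups of 1 gene. All 4 genes peak in the control coculture, where EREG lies at 1.28, IFITM3 close to it and IFITM1 and IFI44 higher.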

How the data were processed

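RNA of GFP-tagged polysomes was sequenced from 8 libraries made with TruSeq v2, per the labels' protocols. The submitters' processing notes name TopHat2, HTSeq, DESeq2 and hg19, and give no version. Which annotation and strand option were used for counting is not given in the sources used here. The deposited table, although its name calls it normalized, holds whole-number read counts for 57445 genes and 5 counter entries, which were left out. Non-unique alignments were 14.2% to 26.1% of the totals, highest in library 1 of the control coculture.

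A mean count of 10 or more left 15806 genes, which were scaled by TMM and tested by quasi-likelihood in edgeR 4.0.16 (R 4.3.3), with the 4 groups in 1 fit and Benjamini-Hochberg adjustment over all tested genes at 0.05. Intervals are 95%. Lengths are exon unions of GENCODE 29 (GRCh38), and sequences are from RefSeq. DESeq2 1.42.0 was run as an alternative. On simulated counts for the comparison of the control coculture with control cells alone, over 15806 genes, 83% of 100 changes of 1 log2 unit and 56% of 100 changes of 0.5 were recovered, with 9 false calls. Only 200 genes changed there, alike in all cocultures, and each gene had the spread typical of its level. Real genes of 1 level differ in spread, so these figures may be too favourable for the real counts. Members and lists were chosen with earlier results of these data known. Named were the 10 genes, the rest of the family, and up to 3 genes of a list with the smallest p in a comparison. The nearest patterns were the 3 highest Pearson r over the libraries among genes with a mean count of 50 or more. Candidates were limited to genes that GENCODE 29 lists as protein-coding, leaving out symbols of clones, antisense RNAs and reading frames.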

Additional observations from a re-analysis of the deposited data

How the results depend on the processing

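Of the 10 genes, EREG kept its call with astrocytes, with both hairpins and with each hairpin in all 14 alternatives, as did ERRFI1 with astrocytes and NRG1 in depleted cocultures against control cells alone. The 14 were DESeq2, other size factors, 2 other filters, a fit of the compared groups only, a replicate block and each library left out. Over all genes, dropping the filter gave 2805 calls with astrocytes (1844 in the main analysis), 2269 with hairpin 1 (1236), 1191 with hairpin 2 (658), 4117 in depleted cocultures against control cells alone (2709) and 304 between hairpins (5). DESeq2 gave 18 between hairpins, a mean count of at least 50 gave 3, and fitting the compared groups only gave 2 there and 233 with hairpin 1. Dropping the filter gave 5 of the 10 genes with hairpin 2 (3), and fitting the compared groups only gave 1 with hairpin 1 (3). AREG and BTC have no value at a mean count of at least 50. A group of 2 with 1 library left out is assumed to vary like the others.

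Replicate numbers are shared by the groups, but nothing says that a number marks a shared day, and the correlation of same-numbered deviations ran from -0.562 to 0.315, so the numbers were not taken to pair the libraries. With the replicate block the counts over all genes were 1160 with astrocytes, 700 with both hairpins (1457), 446 with hairpin 1, 319 with hairpin 2, 0 between hairpins and 1502 in depleted cocultures against control cells alone, and 1 of the 10 genes was called in the last (3), NRG1.

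With 1 library left out in turn, the calls over all genes ran from 738 to 2589 with astrocytes, 346 to 2311 with both hairpins, 281 to 2407 with hairpin 1, 150 to 1097 with hairpin 2, 0 to 3 between hairpins and 573 to 4723 in depleted cocultures against control cells alone. Of the 10 genes 2 to 3, 1 to 5, 1 to 4, 1 to 4, 0 to 0 and 1 to 3 were called, in that order.

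Changes of sign were seen in uncalled values, those of AREG being the widest. With hairpin 2, HBEGF (-0.0058) was 0.0047 without the filter and -0.015 to 0.012 with 1 library left out. Between hairpins, TGFA (-0.0024) was 0.0017 with DESeq2 and with other size factors, 0.00054 without the filter, 0.0072 at a mean count of at least 50 and 0.0039 with the compared groups only. With 1 library left out the difference between hairpins ran from -0.081 to 0.071 for TGFA, -0.192 to 0.018 for EGFR and -0.197 to 0.047 for ERBB2. AREG ran from -0.49 to 0.569 with both hairpins, -0.785 to 0.27 with hairpin 1 and -0.195 to 0.868 with hairpin 2. In depleted cocultures against control cells alone, BTC ran from -0.23 to 0.12, EGFR from -0.0059 to 0.138 and ERBB2 from -0.067 to 0.121. Depth limits EPGN, ERBB4 and NRG3 most, which fell below the filter, and then EGF, AREG and NRG4. For AREG the count may also lack reads that align to its copy AREGB as well, which more depth would not restore, and this was not tested.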
